A study of Mus musculus with 36 samples.

Results

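The 41 genes described here code for the enzymes of glycolysis and of the tricarboxylic acid (TCA) cycle, together with the glucose transporters Slc2a1 and Slc2a3, the regulator Pfkfb3 and the enzymes through which pyruvate enters the cycle. They were chosen by name for their place in the pathway, with earlier results of these data known. All 41 were found, each on 1 row, among the 24346 gene symbols of the deposited tables. RNA was sequenced from tissue enriched for the suprachiasmatic nucleus (SCN), the seat of the central circadian clock, dissected from fresh brains of adult C57BL/6J mice. The mice had received normal chow or a high-fat diet for 10 weeks, and no other genotype or agent is named in the labels. Each diet had 3 libraries at each of 6 zeitgeber times (ZT 0, 4, 8, 12, 16 and 20), 18 libraries a diet and 36 in all. Whether the 3 replicates of a group are separate animals is not stated in the labels, and p-values therefore measure only the spread between these samples.

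Glycolysis splits glucose into pyruvate in the cytosol. Glucose enters the cell through facilitative transporters, is phosphorylated by hexokinase and committed at phosphofructokinase, and the steps from aldolase to pyruvate kinase recover the energy. Pyruvate is then reduced to lactate by lactate dehydrogenase, or enters mitochondria, where the pyruvate dehydrogenase complex and pyruvate carboxylase feed the TCA cycle. In brain, astrocytes are known for a high rate of glycolysis and neurons for a high use of oxidative metabolism, and electrical activity of SCN neurons is known to follow the time of day. Fewer cells of a type and less RNA per cell cannot be told apart in RNA from a dissected piece of tissue.

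Levels below are deposited FPKM values rescaled to sum to 1000000 in each library, and log2 differences are on the log2(value + 1) scale. The deposited values summed to 302899 to 432336 per library before rescaling, reads per library are not stated, and a rough estimate from low values put the deepest library at 1.77 times the depth of the shallowest. Libraries of 1 group correlated across genes at a median Pearson r of 0.988, as did libraries of different groups. Some libraries stood apart. The first chow replicate at ZT 0 had a summed level of 4789 for 7 liver markers and 4109 for blood markers, against medians over all libraries of 79.4 and 1381, and the first chow replicate at ZT 4 and the third high-fat replicate at ZT 0 followed for liver. The third high-fat replicate at ZT 16 (1613) and the third chow replicate at ZT 12 (1010) were highest for striatal, cortical and thalamic markers, against a median of 124. The 9 SCN markers summed to between 307 and 4463, the lowest in the second high-fat replicate at ZT 8. This library held the highest value of 16 of the 41 genes and the lowest of 4, the largest total of any library. The second chow replicate at ZT 4 held the highest of 8 and the lowest of 2, and the second chow replicate at ZT 16 the highest of 7 and the lowest of 2. The latter had the second highest neuron marker sum, 4773 against a median of 3758. The 2 diets were deposited as separate tables, and an effect of diet cannot be told apart from one of table preparation.

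Promoter sequences of 3 genes are shown because the test of a daily rhythm called them: Slc2a1 and Idh2 of the 41, and Slc16a1 of the wider pathway. Each is the 250 bases before the transcription start in RefSeq (GRCm38.p6), 5′ to 3′ on the strand of the gene. Capitals mark matches to 8 short motifs searched on both strands: the E-box CACGTG, the E'-box CACGTT and the D-box TTATGTAA of clock factors, the ROR and REV-ERB half-site AGGTCA, the hypoxia response core ACGTG, the cAMP response element TGACGTCA, the GC box GGGCGG and the CCAAT box. The hypoxia core overlaps the E-box, since CACGTG holds ACGTG on each strand. The intervals are chr4:119108495-119108744 (plus strand) for Slc2a1, chr7:80115351-80115600 (minus strand) for Idh2 and chr3:104638414-104638663 (plus strand) for Slc16a1. In GENCODE M21 the genes Slc2a1 and Idh2 start farther upstream, at 119108711 and 80115392, so these 2 intervals run in part within the gene of that annotation.
Slc2a1: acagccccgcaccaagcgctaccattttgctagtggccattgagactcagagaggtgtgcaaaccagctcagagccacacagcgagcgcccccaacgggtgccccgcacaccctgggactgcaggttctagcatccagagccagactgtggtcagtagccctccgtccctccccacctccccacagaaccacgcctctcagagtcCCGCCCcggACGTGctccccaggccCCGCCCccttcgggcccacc
Idh2: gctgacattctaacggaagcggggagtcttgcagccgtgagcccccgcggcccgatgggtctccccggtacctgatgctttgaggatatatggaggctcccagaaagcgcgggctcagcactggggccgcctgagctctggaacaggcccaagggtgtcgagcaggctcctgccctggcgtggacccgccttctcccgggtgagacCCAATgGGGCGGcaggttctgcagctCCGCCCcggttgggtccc
Slc16a1: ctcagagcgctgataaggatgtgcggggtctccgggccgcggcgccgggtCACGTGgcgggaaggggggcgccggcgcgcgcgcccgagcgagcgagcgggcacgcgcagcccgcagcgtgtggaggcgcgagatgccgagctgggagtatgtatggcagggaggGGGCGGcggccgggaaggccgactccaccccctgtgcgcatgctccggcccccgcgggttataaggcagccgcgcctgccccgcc
In the Slc2a1 sequence the capitals are 2 GC boxes and 1 hypoxia core, in that of Idh2 a CCAAT box and 2 GC boxes, and in that of Slc16a1 an E-box and a GC box. A promoter was found for 38 of the 41 genes, with 56 start sites among them, and was compared with all 32851 promoters of the same length. The hypoxia core stood in 39.3% of the promoters of the 41 genes and in 16.6% of all promoters, the E-box in 12.5% and 6.02%, and the GC box in 50% and 32.7%. The D-box stood in 0 of the 56 and in 0.819% of all, and the E'-box in 1.79% and 3.85%. AGGTCA stood in 16.1% and 14%, the cAMP response element in 8.93% and 1.55%, and CCAAT in 41.1% and 33.8%. These shares count start sites, so a gene with several starts counts more than once. The hypoxia core stood in 22 start sites of 14 genes, the E-box in 7 of 5 genes, the GC box in 28 of 24 genes and the cAMP response element in 5 of 3 genes. Promoters of 1 gene overlap in part, and a match of letters is a description of the sequence only.

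The pathway was abundant, and its level varied little from library to library. The 41 genes made up between 1.6% and 2.0% of the summed level of a library, with 1.76% ± 0.101 under chow and 1.77% ± 0.0966 under high-fat diet (SD, n = 18 each). All 41 passed the minimum mean level of 1 that a row needed to be tested. The SD within a group of 3 libraries, pooled over the 12 groups, had a median of 0.11 on the log2 scale over the 41 genes (0.07 to 0.35), against 0.19 over all rows tested. All rows include many of low level, and the comparison was not matched for level.

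The steps from aldolase to pyruvate kinase held the highest levels. Gapdh, glyceraldehyde-3-phosphate dehydrogenase, averaged 3178 (2882 to 3722), Aldoa, the ubiquitous aldolase, 2049 (1728 to 2466) and Pkm, pyruvate kinase, 1250 (1071 to 1573). Aldoc, the aldolase found in brain mostly in astrocytes, averaged 1056, Tpi1, triose phosphate isomerase, 825, and Pgam1, phosphoglycerate mutase, 675. Eno2, the enolase of neurons, averaged 709 and ranged from 603 to 901. Eno1, the ubiquitous enolase, averaged 508 and ranged 4.18-fold, from 200 to 838, the widest range of the 41 genes. The 200 was that of the second high-fat replicate at ZT 8, and without this library Eno1 ranged 2.70-fold, from 310 upward, still the widest. Its near-identical copy Eno1b stood on 2 rows of its own at means of 321 and 259, so reads may be split between the copies and the level of Eno1 is uncertain.

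Upstream steps were expressed at lower levels. Slc2a1 (GLUT1), the transporter of the blood-brain barrier and astrocytes, ranged from 71.7 to 129 with a median of 97.0, and Slc2a3 (GLUT3), the transporter of neurons, from 55.7 to 91.1 with a median of 73.7. Of the hexokinases, Hk1, the brain form, averaged 204 and Hk2, an inducible form, 2.66, the lowest of the 41 genes. Among the phosphofructokinase subunits, Pfkm stood at 398, Pfkp at 97.7 and Pfkl at 80.4. Pfkfb3, which makes the activator of phosphofructokinase, averaged 27.0. Lactate dehydrogenase was mostly the B subunit, with Ldhb at 882 and Ldha at 307.

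Genes of pyruvate entry and of the TCA cycle lay between 26.8 and 567. Mdh2, mitochondrial malate dehydrogenase, was the highest at 567, followed by Sdha, the flavoprotein of succinate dehydrogenase, at 478. Idh3b, Idh3g and Idh3a, the subunits of the NAD-dependent isocitrate dehydrogenase, averaged 341, 209 and 197, and Idh2, the NADP-dependent mitochondrial form, 75.9. Of the succinyl-CoA ligase subunits, Sucla2, of the ATP-forming enzyme, averaged 183 and Suclg2, of the GTP-forming enzyme, 26.8. Pcx, pyruvate carboxylase, known in brain from astrocytes, averaged 70.1.

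**Figure D1:**
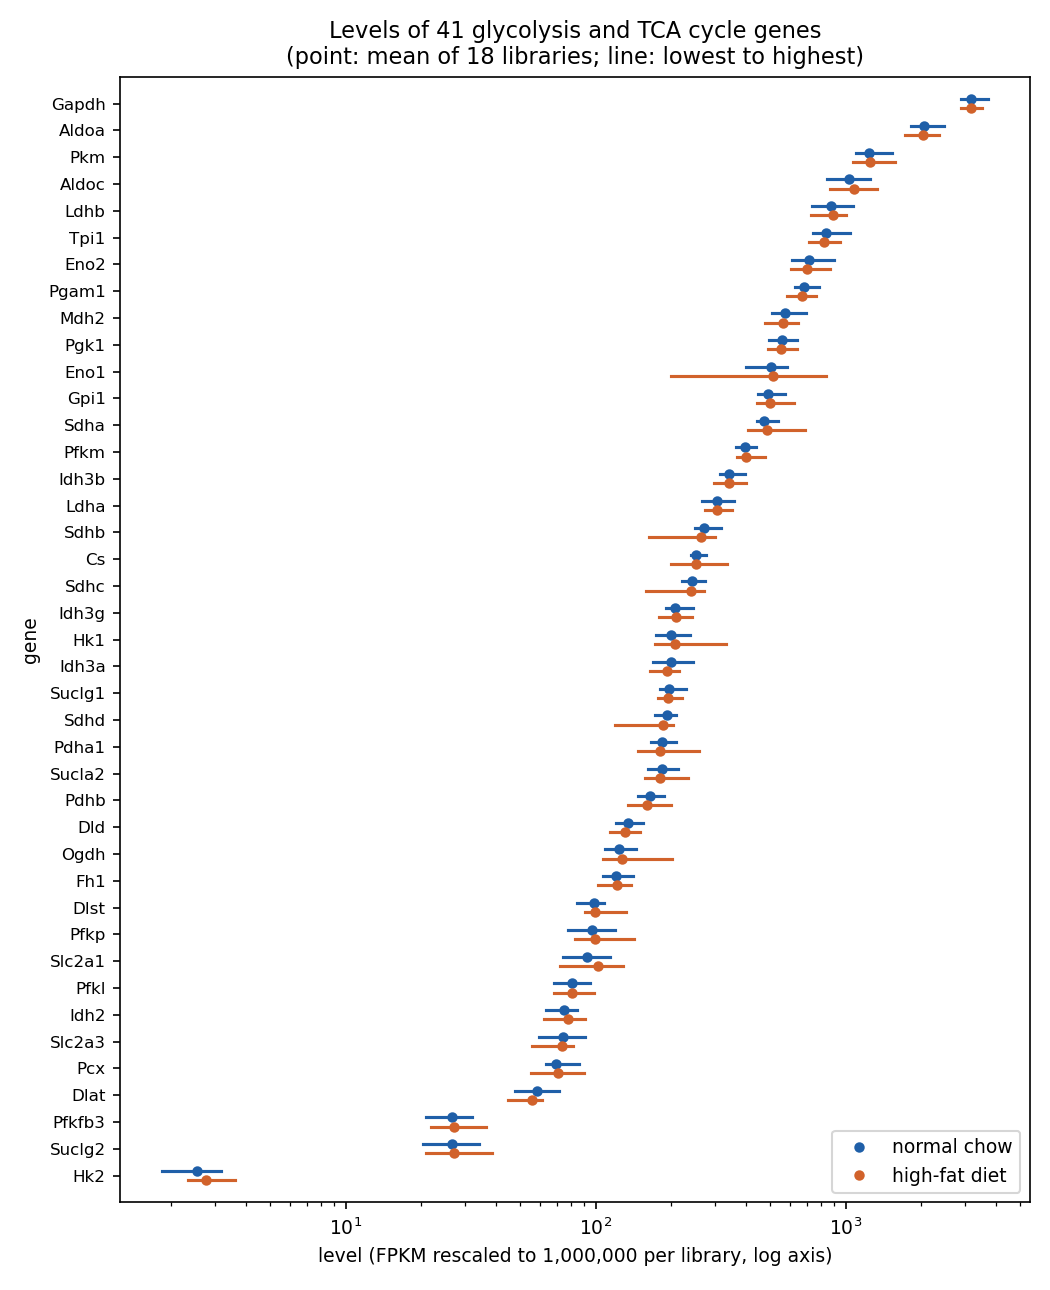
Levels of the 41 genes (FPKM rescaled to 1000000 per library, log axis), as the mean of 18 libraries (point) and the lowest to highest library (line) for normal chow and high-fat diet. The lines of the 2 diets overlap for all 41 genes, Gapdh is highest at 3178 and Hk2 lowest at 2.66, and Eno1 has the widest range.

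The first question was whether transcripts of the pathway follow the time of day. With both diets fitted to a single 24 h cosine, the glucose transporter Slc2a1 and the dehydrogenase Idh2 rose and fell over the day, and the other 39 genes did not pass. Both had their fitted peak after ZT 12, and their lowest group means were at ZT 0 or ZT 4. Over all rows 2.18% were called in this fit, against 2 of the 41 genes. The median fitted fold between peak and trough was 1.08 over the 41 genes and 1.10 over all rows, and at most 1.12 in the 39 genes that did not pass.

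Slc2a1 lies on chromosome 4 from 119108711 to 119137983 on the plus strand (GENCODE M21, GRCm38). Under chow its levels were 83.2, 93.9 and 75.4 at ZT 0, then 85.9, 74.4 and 84.2 at ZT 4, and 92.2, 84.3 and 87.3 at ZT 8. They were 114, 105 and 100.4 at ZT 12, then 95.5, 106 and 88.4 at ZT 16, and 83.6, 104 and 101 at ZT 20. All 3 chow libraries at ZT 12 stood above all 9 chow libraries of the earlier times. Under high-fat diet the levels were 71.7, 79.0 and 98.5 at ZT 0, then 107, 89.2 and 83.7 at ZT 4, and 118, 101 and 91.1 at ZT 8. They were 115, 129 and 124 at ZT 12, then 116, 104 and 91.9 at ZT 16, and 105, 101 and 111 at ZT 20. Here too the 3 libraries at ZT 12 stood above the 3 at ZT 0, with overlap between ZT 12 and both ZT 8 and ZT 16. The shared rhythm had an amplitude of 0.19 ± 0.035 (log2, SE, n = 36 libraries), a 1.30-fold swing, with a peak at ZT 13.7 ± 0.709 h (limma adjusted p = 0.00402). Markers of endothelial and mural cells, where Slc2a1 is abundant, had median sums from 161 (ZT 8) to 192 (ZT 16) under chow and from 166 (ZT 0) to 223 (ZT 4) under high-fat diet. With summary scores of neuron, oligodendrocyte, endothelial and mural, choroid plexus and meningeal markers in the fit, the amplitude was 0.20 (limma adjusted p = 0.00454). This fit held no score of astrocytes or SCN, and the part of cell types in the rhythm was not tested beyond it.

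Idh2 lies on chromosome 7 from 80094846 to 80115392 on the minus strand (GENCODE M21, GRCm38). Under chow its levels were 72.5, 83.9 and 74.0 at ZT 0, then 63.3, 65.2 and 70.1 at ZT 4, and 69.5, 67.7 and 72.0 at ZT 8. They were 84.2, 79.1 and 75.4 at ZT 12, then 77.9, 75.5 and 83.8 at ZT 16, and 74.4, 73.6 and 81.5 at ZT 20. The libraries at ZT 4 and ZT 8 were the low ones, and all 6 lay below the 9 libraries from ZT 12 to ZT 20. Under high-fat diet the levels were 68.4, 75.8 and 83.7 at ZT 0, then 68.8, 62.2 and 63.2 at ZT 4, and 82.0, 80.4 and 72.9 at ZT 8. They were 86.1, 77.4 and 82.3 at ZT 12, then 88.2, 90.9 and 70.1 at ZT 16, and 80.5, 77.2 and 80.4 at ZT 20. Again the 3 libraries at ZT 4 lay below every library of ZT 8 to ZT 20, while the third at ZT 16, the library highest for striatal markers, lay near them. The shared rhythm had an amplitude of 0.13 ± 0.026 (log2, SE, n = 36), a 1.19-fold swing, with a peak at ZT 15.9 ± 0.787 h (limma adjusted p = 0.0112). Without the 2 libraries richest in striatal markers the amplitude was 0.14 (limma adjusted p = 0.00251).

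Both calls rested on a rescaling of the libraries. With median-of-ratios size factors both also passed (limma adjusted p = 0.0204 for Slc2a1 and 0.0408 for Idh2). With FPKM as deposited neither passed, with an amplitude of 0.15 for Slc2a1 (limma adjusted p = 0.102) and of 0.10 for Idh2 (limma adjusted p = 0.251). With marker scores in the fit 4 of the 41 genes were called, the additional ones being Pfkp (limma adjusted p = 0.0428) and Ldha (limma adjusted p = 0.0345).

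The next genes in order were the subunits Idh3g and Idh3b, with fitted peaks at ZT 6.36 and ZT 5.79 in the shared fit and limma adjusted p of 0.0961 and 0.331. Group means of Idh3g at ZT 0, 4, 8, 12, 16 and 20 were 202, 226, 206, 206, 210 and 198 under chow and 199, 233, 217, 221, 188 and 205 under high-fat diet, with group SDs of 2.96 to 19.6. Those of Idh3b were 330, 362, 331, 340, 353 and 330 under chow and 329, 379, 355, 343, 306 and 334 under high-fat diet, with group SDs of 2.92 to 30.6. In both genes and both diets the highest mean was that of ZT 4, and the lowest under high-fat diet that of ZT 16. Without the second chow replicate at ZT 16, Idh3g also passed (limma adjusted p = 0.0484).

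**Figure D2:**
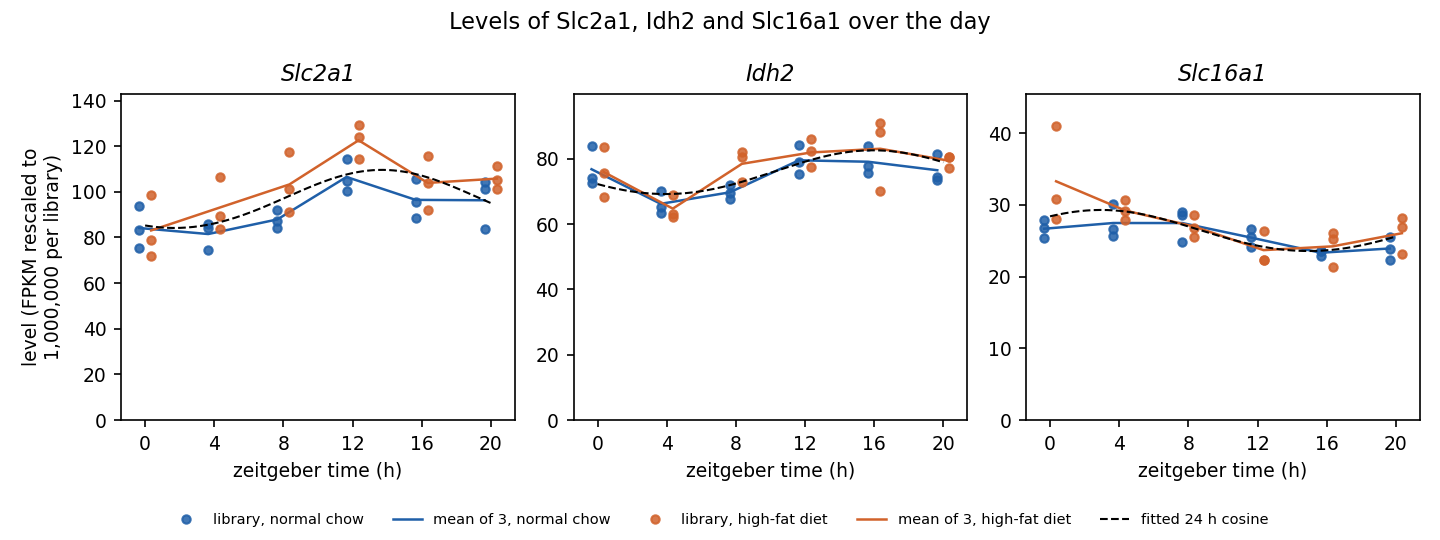
Levels of Slc2a1, Idh2 and Slc16a1 (FPKM rescaled to 1000000 per library) in each of 36 libraries by zeitgeber time (h), with the mean of 3 libraries for each diet (solid lines) and the 24 h cosine fitted to both diets (dashed). Slc2a1 peaks at a fitted ZT 13.7, Idh2 at ZT 15.9 and Slc16a1 at ZT 2.95, and 1 high-fat library at ZT 0 stands at 41.1 for Slc16a1.

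Within 1 diet, with 18 libraries, 0 of the 41 genes passed. Under chow 0.845% of all rows were called. At an unadjusted p under 0.05 there were 4 of the 41 genes, against 18.2% of all rows. These were Slc2a1 (1.26-fold, peak at ZT 14.6, limma adjusted p = 0.102), Pfkfb3 (1.29-fold, ZT 19.2, adjusted p = 0.133), Idh2 (1.18-fold, ZT 16.8, adjusted p = 0.136) and Dlat (1.16-fold, ZT 13.5, adjusted p = 0.236). Pfkfb3 had chow means of 28.4, 25.1, 22.9, 24.9, 30.7 and 28.6 from ZT 0 to ZT 20, with group SDs of 0.920 to 5.24. It was lowest at ZT 8 and highest at ZT 16, and the groups at ZT 0 and ZT 4 were the most spread. Dlat, the acetyltransferase of the pyruvate dehydrogenase complex, had chow means of 52.2, 57.1, 58.3, 61, 63.7 and 57.8, with group SDs of 0.545 to 6.78. The median fitted fold under chow was 1.07 over the 41 genes and 1.14 over all rows.

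Under high-fat diet 0.0728% of all rows were called, and 9 of the 41 genes had an unadjusted p under 0.05, against 8.64% of all rows. This count rested on single high-fat libraries: it was 3 without the second replicate at ZT 4, 5 without the first at ZT 4, the second at ZT 16 or the first at ZT 20, 14 without the third at ZT 0 and 16 without the first at ZT 8. The smallest p-values were those of Slc2a1 (1.35-fold, ZT 13.0, limma adjusted p = 0.376), Idh3g (1.17-fold, ZT 6.46, adjusted p = 0.458), Idh2 (1.21-fold, ZT 15.3, adjusted p = 0.495) and Idh3b (1.17-fold, ZT 5.48, adjusted p = 0.501). The median fitted fold was 1.14 over the 41 genes and 1.15 over all rows. Fitted peaks between ZT 3 and ZT 9 were found for 29 of the 41 genes under high-fat diet and for 12 under chow, with 42.5% and 19.8% of all rows. Slc2a1 and Idh2 were not among the 29. None of the 41 genes passed in either diet, and the SE of a peak reached 17.8 h under high-fat diet (Eno1) and 14.1 h under chow (Aldoa). The second high-fat replicate at ZT 8, within this window, held the highest value of 16 of the 41 genes.

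The rhythm was then compared between the diets. By limma 0 of the 41 genes and 0% of all 15173 rows were called for a difference in rhythm, and 6 genes had an unadjusted p under 0.05, against 13.2% of all rows. The count of 6 was 3 without the second chow replicate at ZT 16, 10 without the first chow replicate at ZT 4 and 12 without the first high-fat replicate at ZT 8. The smallest p-values belonged to Dld, the dihydrolipoamide dehydrogenase that several mitochondrial complexes share, Idh3a, Pfkfb3 and Pfkp (limma adjusted p = 0.357 for each). Dld had means of 127, 134, 132, 135, 143 and 134 from ZT 0 to ZT 20 under chow and 128, 142, 136, 133, 123 and 124 under high-fat diet, with group SDs of 2.41 to 12.9. Idh3a had 182, 201, 194, 198, 221 and 205 under chow and 186, 213, 198, 197, 178 and 187 under high-fat diet, with group SDs of 3.10 to 22.1. In both genes the highest mean was at ZT 16 under chow and at ZT 4 under high-fat diet. Pfkfb3 had high-fat means of 28.5, 26.4, 30.1, 25, 25.9 and 27.2, with group SDs of 0.128 to 6.02, beside the chow means above. Pfkp had 94.3, 102, 84.5, 89.8, 107 and 100 under chow and 100, 110, 108, 91.3, 90.3 and 94.4 under high-fat diet, with group SDs of 1.01 to 30.4. Both were lowest at ZT 8 under chow, and at that time under high-fat diet the spread of Pfkp was the widest of its groups.

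Diet was next compared over all time points. None of the 41 genes passed, and the estimates were small: 21 were higher and 20 lower under high-fat diet, from -0.07 to 0.14 in log2, with a median of 0.00 over the 41 genes and of 0.00 over all rows. By limma 0.0132% of all rows were called, and 1 of the 41 genes had an unadjusted p under 0.05 (2 without the first high-fat replicate at ZT 0), against 2.56% of all rows. The 95% interval of every one of the 41 genes lay within 0.25 of 0 on the log2 scale. By role, the 7 genes from hexokinase to phosphofructokinase were all higher, with a median of 0.03 (0.002 to 0.09). In each of these 7 the highest library was the second high-fat replicate at ZT 8, so their shared direction may rest on this library. From aldolase to pyruvate kinase 6 of 9 were lower, with a median of -0.02. Of pyruvate entry 4 of 5 were lower (median -0.03), and of the 10 genes from citrate synthase to succinyl-CoA 5 were higher and 5 lower.

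Slc2a1 had the largest estimate. It ranged from 74.4 to 114 with a median of 90.3 under chow and from 71.7 to 129 with a median of 103 under high-fat diet, so the diets overlapped over most of their range. The means were 92.1 ± 11.1 and 102 ± 15.5 (SD, n = 18 each, time of day included), and the high-fat mean was the higher at every time point but ZT 0. The log2 change was 0.14 ± 0.046 (SE; 95% interval 0.04 to 0.23; unadjusted p = 0.00555, adjusted p = 1.0 by limma). Endothelial and mural markers had a median sum of 204 under high-fat diet and 176 under chow. With all the marker scores in the fit together, the log2 change of Slc2a1 was 0.07. The part of any single cell type in this change was not tested.

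Dlat, Hk2 and Sdhd, the small membrane anchor of succinate dehydrogenase, followed by p. Dlat had high-fat means of 54.9, 58.5, 56.6, 58.6, 53.8 and 51.7 from ZT 0 to ZT 20, with group SDs of 0.811 to 6.68, and a log2 change of -0.07 ± 0.040. Hk2 had means of 2.45, 2.39, 2.40, 2.53, 2.70 and 2.83 under chow and 2.73, 2.43, 2.90, 2.69, 2.96 and 2.86 under high-fat diet, with group SDs of 0.0102 to 0.636, and a log2 change of 0.09 ± 0.054. Sdhd had 186, 193, 184, 197, 205 and 193 under chow and 193, 197, 161, 195, 179 and 189 under high-fat diet, with group SDs of 3.62 to 35.5, and a log2 change of -0.06 ± 0.041. The limma adjusted p was 1.0 for each of these, and the intervals of all 3 include 0.

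**Figure D3:**
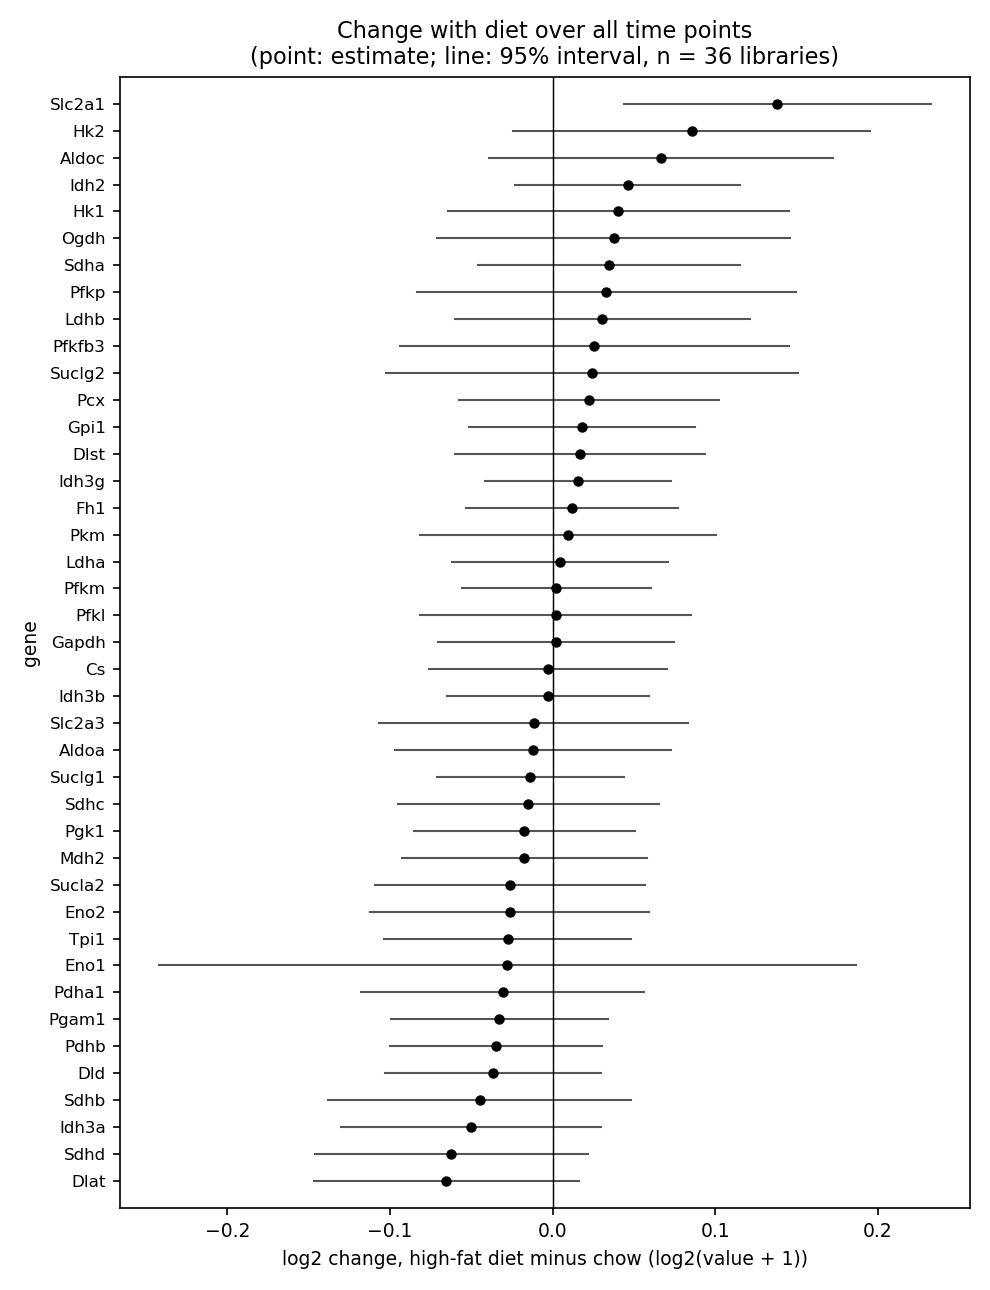
Log2 change of each of the 41 genes, high-fat diet minus chow, over all time points (log2(value + 1) scale; point: limma estimate; line: 95% interval; n = 36 libraries). Slc2a1 at 0.14 is the 1 gene whose interval does not include 0, and the line of Eno1 is the longest.

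Ratios of 2 isozymes within a library were compared between diets for 6 pairs. Slc2a1 to Slc2a3 was 1.24 under chow and 1.38 under high-fat diet, as the geometric mean of the ratio of levels over 18 libraries each. The test used the log2 ratio of level + 1, in which the added 1 lowers the ratio of Hk1 to the low Hk2 to 56.9 and 55.2. For Slc2a1 to Slc2a3 its mean was 0.31 ± 0.195 and 0.46 ± 0.291 (SD), a difference of 0.15 (permutation test, two-sided, p = 0.0786, adjusted p = 0.472 over the 6 pairs). Libraries were shuffled between the diets without regard to time point, so differences over the day are part of the spread in this test. The ratio of levels of Hk1 to Hk2 was 79.3 under chow and 75 under high-fat diet, and that of Pfkm to Pfkp 4.14 and 4.05. Aldoa to Aldoc was 2.0 and 1.89, Eno1 to Eno2 0.704 and 0.703, and Ldha to Ldhb 0.351 and 0.345. None of the 6 pairs passed, with adjusted p of 0.472 to 0.995 by the same permutation test.

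The members of these pairs had ranges that overlapped between the diets. Slc2a3 ranged from 59.2 through a median of 73.2 to 91.1 under chow and from 55.7 through 74.6 to 80.9 under high-fat diet. Hk1 ranged from 174 through 202 to 238 and from 173 through 200 to 333, Hk2 from 1.84 through 2.51 to 3.17 and from 2.34 through 2.61 to 3.63. Pfkm ranged from 365 through 400 to 437 and from 367 through 395 to 477, Pfkp from 77.7 through 97.5 to 119 and from 82.7 through 97.8 to 142. The high-fat maxima of Hk1, Hk2, Pfkm and Pfkp, and the minimum of Eno1 below, were those of the second replicate at ZT 8. Aldoc ranged from 840 through 1008 to 1253 and from 868 through 1103 to 1340. Eno1 ranged from 401 through 522 to 585 under chow and from 200 through 524 to 838 under high-fat diet, Eno2 from 611 through 709 to 901 and from 603 through 704 to 867. Ldha ranged from 267 through 302 to 359 and from 273 through 309 to 350, Ldhb from 736 through 877 to 1069 and from 725 through 889 to 1004.

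At single time points the diets were compared with 3 libraries each, with the largest median difference of the 41 genes at ZT 16. There 35 of the 41 genes were lower under high-fat diet and 6 higher, against 55.2% of all rows, with a median log2 change of -0.16 against -0.02 over all rows. None passed the test, and 0% of all rows were called. At an unadjusted p under 0.05, 15 of the 41 genes were lower, against 8.17% of all rows, and 1 was higher, against 2.58%. Without the second chow replicate at ZT 16 the count of 16 was 8, and the median log2 change of the 41 genes was -0.12. For 24 genes all 3 high-fat libraries lay below all 3 chow libraries (12.3% of all rows), and for Aldoc and Pcx they lay above (5.05%). The count of lower genes was 34 to 36 with the other scalings and with any library left out, and 30 with marker scores in the fit, where the median was -0.06 against 0.08 over all rows.

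**Figure D4:**
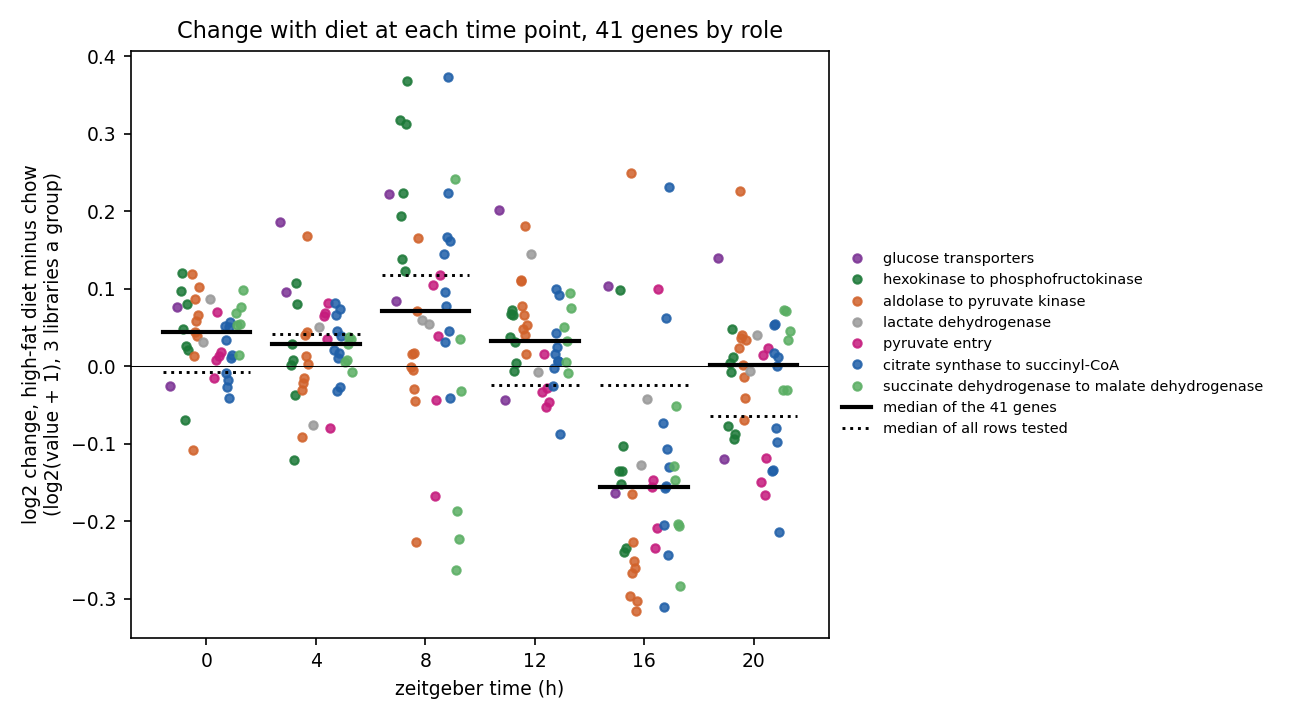
Log2 change of the 41 genes, high-fat diet minus chow, at each zeitgeber time (h), coloured by role (log2(value + 1) scale, 3 libraries a group), with the median of the 41 genes (solid bar) and of all rows tested (dotted bar). At ZT 16 the solid bar lies at -0.16, below the dotted bar at -0.02, and at ZT 8 single genes spread from -0.26 to 0.37.

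From aldolase to pyruvate kinase 8 of 9 genes were lower at ZT 16, with a median of -0.26. Aldoa stood at 2068, 2466 and 2170 under chow and at 1877, 1728 and 1843 under high-fat diet, a log2 change of -0.30 ± 0.089. Pkm stood at 1252, 1529 and 1286 under chow and at 1110, 1071 and 1102 under high-fat diet, a change of -0.30 ± 0.095. In both genes the groups did not overlap, and the second chow replicate was the highest library. Eno2 stood at 712, 901 and 760 under chow and at 614, 613 and 670 under high-fat diet, a change of -0.32 ± 0.092. Pgam1 stood at 677, 785 and 711 under chow and at 643, 596 and 585 under high-fat diet, a change of -0.25 ± 0.071. Limma adjusted p was 0.285 for Aldoa, Eno2 and Pgam1 and 0.301 for Pkm. Aldoc was the exception in this group, at 1083, 840 and 946 under chow and 1166, 1143 and 1084 under high-fat diet (0.25 ± 0.121, limma adjusted p = 0.463).

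In the TCA cycle, 8 of the 10 genes from citrate synthase to succinyl-CoA (median -0.14) and all 6 from succinate dehydrogenase to malate dehydrogenase (median -0.17) were lower at ZT 16. Idh3a stood at 203, 246 and 213 under chow and at 193, 175 and 166 under high-fat diet, a log2 change of -0.31 ± 0.083 (limma adjusted p = 0.284), the smallest p of the 41 genes. Mdh2 stood at 566, 663 and 596 under chow and at 518, 504 and 475 under high-fat diet, a change of -0.28 ± 0.078 (limma adjusted p = 0.284). In both the chow and high-fat libraries were apart. Of the genes that were higher, Suclg2 stood at 28.3, 20.5 and 27.8 and at 26.9, 31.4 and 31.4, a change of 0.23, and Idh2 changed by 0.06. Of pyruvate entry 4 of 5 genes were lower, and Pcx stood at 65.2, 63.5 and 63.1 under chow and 70.1, 69.1 and 66.7 under high-fat diet. Of hexokinase to phosphofructokinase 6 of 7 were lower, 0 of them at an unadjusted p under 0.05.

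Markers of cell types differed at the same time point. Neuron markers summed to 3694 to 4773 under chow and to 3233 to 3641 under high-fat diet at ZT 16, and SCN markers to 1566 to 2099 and 807 to 1101, both without overlap. Astrocyte markers summed to 1551 to 2088 under chow and to 2299 to 2691 under high-fat diet, also without overlap. Sums of all other marker lists overlapped between the diets at ZT 16. Neuron sums were apart at ZT 4 as well, at 3757 to 4104 under chow and 4209 to 4399 under high-fat diet. At that time the median log2 change was 0.03 over the 41 genes and 0.04 over all rows. None of the 9 neuron, 9 SCN and 8 astrocyte markers was at 0 throughout. Their part in the ZT 16 values was not tested beyond the fit with marker scores, which held the neuron score and not those of SCN or astrocytes.

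**Figure D5:**
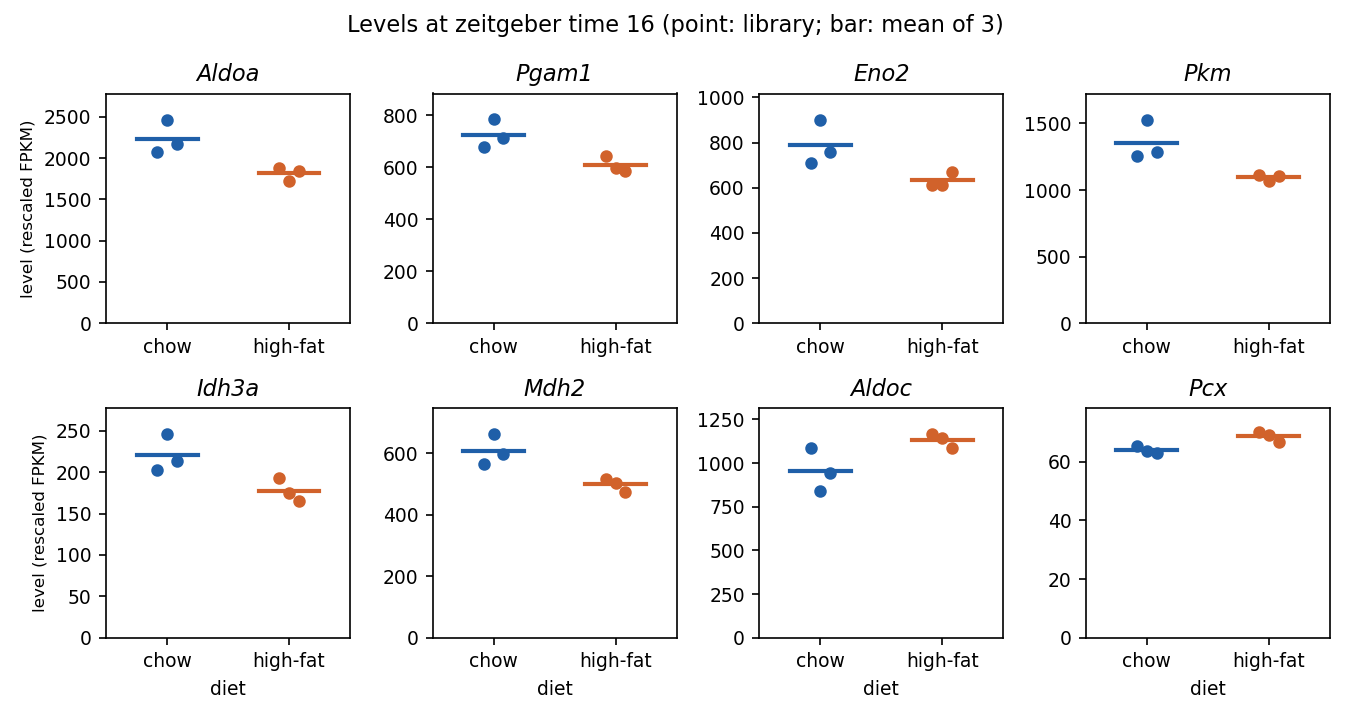
Levels of 8 genes at ZT 16 (FPKM rescaled to 1000000 per library) in the 3 libraries of each diet (points), with their mean (bar). Aldoa, Pgam1, Eno2, Pkm, Idh3a and Mdh2 have all high-fat libraries below all chow libraries, and Aldoc and Pcx have them above.

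At ZT 8, 29 genes were higher and 12 lower, a split like that of all rows, of which 29.3% were lower. The median log2 change was 0.07 against 0.12 over all rows. At an unadjusted p under 0.05, 7 were higher, against 10.8% of all rows, and 3 lower, against 5.25%, and none passed. These values rested largely on a single library. Hk1 stood at 186, 205 and 200 under chow and at 200, 333 and 223 under high-fat diet, Ogdh, the first enzyme of the oxoglutarate dehydrogenase complex, at 112, 120 and 116 and at 124, 202 and 136. Sdhd stood at 183, 190 and 180 and at 184, 120 and 179. In each of the 3 genes the second high-fat replicate was the one far from the rest. Without it 1 of the 41 genes had an unadjusted p under 0.05, and without the first chow replicate 5. Without the first high-fat replicate, so with 2 libraries that include the second, 7 genes passed: Hk1, Pfkp, Pfkfb3, Ogdh, Dlst and Sdha upward and Sdhd downward (-0.33), along with 1099 of all rows. The direction also turned with the scaling, since 28 genes were lower with median-of-ratios size factors and 29 with FPKM as deposited, where the medians were -0.07 and -0.09, against -0.01 and -0.02 over all rows. With each of these scalings the median of the 41 genes lay below that of all rows.

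At the other times 0 of the 41 genes had an unadjusted p under 0.05, against 3.9% of all rows at ZT 0, 1.5% at ZT 4, 0.975% at ZT 12 and 3.99% at ZT 20. Without the second high-fat replicate at ZT 20 there were 4 at that time, and without the first chow or the third high-fat replicate at ZT 12 there was 1 at that time. The median log2 change was 0.04 at ZT 0, 0.03 at ZT 4, 0.03 at ZT 12 and 0.00 at ZT 20, against -0.01, 0.04, -0.02 and -0.06 over all rows. Called rows made up 0.00659% at ZT 12 and 0% at ZT 0, ZT 4, ZT 8 and ZT 20.

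Whether the difference between the diets varied over the day was tested with the 5 diet by time point terms. By limma 0 of the 41 genes and 0% of all rows were called, and 5 genes had an unadjusted p under 0.05, against 5.09% of all rows: Mdh2, Idh3a, Pkm, Aldoa and Eno2 (limma adjusted p = 0.720 for each). The count of 5 rested on single libraries, 10 of which moved the count by over 1.5 times. It was 0 without the second chow replicate at ZT 16, 1 without the second or the third high-fat replicate at ZT 16 and 3 without the first chow replicate at ZT 8. It was 8 without the first chow replicate at ZT 0 or ZT 16 or the third high-fat replicate at ZT 0, 10 without the second chow replicate at ZT 4 or ZT 8 and 15 without the first high-fat replicate at ZT 8. The lower levels at ZT 16 are therefore not shown to differ from those at the other time points. Mdh2 had means of 535, 628, 545, 564, 608 and 541 from ZT 0 to ZT 20 under chow and 574, 623, 533, 594, 499 and 559 under high-fat diet, with group SDs of 14.3 to 56.5. Pkm had 1147, 1364, 1167, 1232, 1356 and 1207 under chow and 1235, 1365, 1317, 1278, 1094 and 1236 under high-fat diet, with group SDs of 12.0 to 229.7. Aldoa had 1919, 2248, 1972, 1986, 2235 and 1990 under chow and 2091, 2199, 1962, 2149, 1816 and 2026 under high-fat diet, with group SDs of 35 to 237. In all 3 genes the chow means were highest at ZT 4 and ZT 16, and the high-fat mean was lowest at ZT 16.

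A wider list of 60 pathway genes held other isozymes, lactate and pyruvate carriers, pyruvate dehydrogenase kinases, shuttle enzymes and the pentose phosphate pathway. Of these, 58 were tested in the shared rhythm and diet fits. In the shared rhythm 1 was called, Slc16a1 (MCT1), a carrier of lactate and ketone bodies, on chromosome 3 from 104638668 to 104658462 (plus strand, GENCODE M21, GRCm38). Its levels under chow were 25.4, 27.8 and 26.8 at ZT 0, 26.7, 25.6 and 30.1 at ZT 4, and 24.9, 28.6 and 29.0 at ZT 8. They were 25.5, 26.7 and 24.1 at ZT 12, 23.6, 23.6 and 22.8 at ZT 16, and 22.4, 23.9 and 25.6 at ZT 20. The 3 chow libraries at ZT 16 stood below all 9 libraries from ZT 0 to ZT 8. Under high-fat diet they were 28.1, 30.8 and 41.1 at ZT 0, 29.1, 30.6 and 27.9 at ZT 4, and 28.6, 25.5 and 26.8 at ZT 8. They were 22.4, 26.4 and 22.3 at ZT 12, 26.1, 25.2 and 21.4 at ZT 16, and 26.9, 28.2 and 23.1 at ZT 20. The highest library, at ZT 0, was the one rich in liver and endothelial markers. The amplitude was 0.15 ± 0.032 (log2, SE, n = 36), a 1.23-fold swing, with a peak at ZT 2.95 ± 0.801 h (limma adjusted p = 0.0130), and 0.14 without the 3 liver-rich libraries (limma adjusted p = 0.00642). Without the third high-fat replicate at ZT 0 alone the amplitude was 0.13, the lowest with any 1 library left out. Over these fits the limma adjusted p was at most 0.0307. The peak of Slc16a1 lay on the other side of the day from that of Slc2a1.

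Pdk4, a kinase that inactivates pyruvate dehydrogenase, was next with a 1.32-fold swing and a peak at ZT 17.7 (limma adjusted p = 0.0816), followed by Pfkfb4 (1.21-fold, ZT 0.451, adjusted p = 0.106). At an unadjusted p under 0.05 there were 11 of the 58 genes, against 13.1% of all rows. For diet over all time points 0 of the 58 were called, and 1 had an unadjusted p under 0.05. This was Slc16a3 (MCT4), the lactate carrier of glycolytic cells, at 2.57 ± 0.525 under chow and 2.19 ± 0.569 under high-fat diet (SD, n = 18), a log2 change of -0.17 ± 0.082 (limma adjusted p = 1.0). Mpc1, a subunit of the mitochondrial pyruvate carrier, had -0.09 ± 0.046 and Pgm1, phosphoglucomutase, 0.09 ± 0.056.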

How the data were processed

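RNA from an SCN-enriched region was sequenced with a stranded mRNA protocol, per the labels' protocols. Trimmomatic, TopHat and Cufflinks, and the builds mm10 and GRCm38, are named in the submitters' processing notes, without versions. The authors deposited a table of FPKM per diet, with 24883 rows and 18 library columns each and 0 columns of unknown sample. FPKM was inferred as the unit from the range of values and the use of Cufflinks, since no header names one. Read depth is unknown, so no counting interval was computed. The file headers give the labels' time points as ZT.

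Values were rescaled to 1000000 per library and transformed as log2(value + 1), which understates changes of low genes. Rows with a mean of at least 1 were tested in limma 3.58.1 (R 4.3.3) with a mean-variance trend, two-sided, and Benjamini-Hochberg adjustment ran over all rows, with calls at an adjusted p under 0.05. Rhythms were a cosine and sine of period 24 h. Fits for 1 diet used its 18 libraries, all others used 36. Isozyme ratios were tested with 100000 permutations (scipy 1.17.1, Python 3.11.15) and adjusted over 6 pairs. Scripts were tested on simulated data. The alternatives were other scalings, pseudocounts and filters, a replicate block, marker scores as covariates and libraries left out. Leaving out the liver-rich or striatum-rich libraries was added after the data were seen. The members and lists were chosen with earlier results of these data known.

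Named are the 4 members with the smallest p in each comparison except those at single time points, every member called, both genes of each isozyme pair, and from the wider list those called and the 3 smallest p for the shared rhythm and for diet. The genes described at ZT 8 and ZT 16 were picked after their values were seen. Marker lists covered neurons, SCN, astrocytes, oligodendrocytes, microglia, endothelial and mural cells, choroid plexus, meninges and fibroblasts, other hypothalamus, striatum with cortex and thalamus, blood and liver. Median marker sums under chow and high-fat diet were 3785 and 3744 (neuron), 1781 and 1525 (SCN), 2104 and 2082 (astrocyte), 5646 and 5641 (oligodendrocyte), 464 and 489 (microglia), and 176 and 204 (endothelial and mural). They were 53.6 and 62.4 (choroid plexus), 80.6 and 105 (meninges), 4158 and 3492 (other hypothalamus), 119 and 129 (striatum, cortex and thalamus), 1170 and 1713 (blood) and 61.1 and 97.3 (liver).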

Additional observations from a re-analysis of the deposited data

How the results depend on the processing

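The count of 2 genes called for the shared rhythm became 0 with FPKM as deposited and 4 with marker scores in the fit, and 2 to 3 with a library left out. At ZT 8 the count of called genes was 0 to 7 with a library left out, as it was over all time points taken singly, the 7 coming without the first high-fat replicate at ZT 8. No gene of the 41 was called in the other comparisons under any alternative run. The Ldha to Ldhb difference in log2 ratio turned from -0.03 to 0.0045 without the 3 liver-rich libraries, and that of Eno1 to Eno2 ran from -0.028 to 0.076 with a library left out, changing sign in 15 of 36 cases. Neither passed in any setting.

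Counts over all rows moved by more than 1.5 times. The 128 rows called under chow compare with counts of 260 with median-of-ratios size factors, 204 without the liver-rich libraries, 50 for any difference among time points, 18 with marker scores and 48 to 162 with a library left out. The 11 under high-fat diet compare with counts of 5 with no filter, 7 with the replicate block, 2 with marker scores, 2 for any difference among time points and 4 to 13 with a library left out. The 331 of the shared rhythm became 634 with marker scores, and the 0 rows at ZT 0 became 414.

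Of 18 correlations between same-numbered deviations 9 were over 0.1 (-0.28 to 0.32, median 0.10), and those at ZT 12 were 0.31, 0.29 and 0.32. These values do not settle whether the replicate numbers pair the samples. With the replicate block the shared rhythm still had 2 of the 41 genes called, at adjusted p of 0.00497 and 0.0145 by limma, and no other count of called genes changed. Depth is unknown, so the precision of low genes such as Hk2 cannot be given from counting.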
